A study of Mus musculus with 12 samples.

Results

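The comparison described here set 3 libraries of L_IR against 3 libraries of Ctrl, 6 of the 12 RNA-seq libraries in the series, and asked which genes stayed away from the control level or passed beyond it after irradiation with the treatment labelled L. All libraries were made from bone marrow cells of WT C57BL/6 mice that were sorted as hematopoietic stem cells (HSCs), by the study's methods as lineage-negative, Sca-1+, c-Kit+, Flt3- and CD34- cells. Ctrl mice were the controls without irradiation. IR mice received 1 sublethal dose of total body gamma irradiation and were sampled 3 days later, and Ab_IR and L_IR mice were sampled at 3 days after irradiation under a treatment that the labels give only as Ab or L. The sources do not say what these letters stand for, how many animals went into a library, or whether replicates came from separate mice, so p-values measure the spread between these libraries, which may be technical. Values are FPKM, fragments scaled to transcript length and to the library's total, and their depth is unknown.

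An HSC can renew itself and give rise to every blood lineage, and after a myelosuppressive dose of radiation the marrow loses cycling progenitors before the lineages are rebuilt. Neutrophils are made in stages that can be read from their granule proteins. The primary granules with Mpo and Elane are filled at the promyelocyte stage, the secondary and tertiary granules with Ltf, Ngp, Camp and the gelatinase Mmp9 come later, and receptors such as Cxcr2 mark the cells that leave the marrow. Globins mark late red cell precursors, the Ear ribonucleases and Prg3 mark eosinophils, osteocalcin and type I collagen mark bone-forming cells, and immunoglobulin transcripts in bulk mark plasma cells.

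The label was checked against its markers. The sort genes were present, with Kit at 21.28 to 25.45 FPKM in Ctrl and 17.81 to 18 FPKM in L_IR, and Ly6a, which encodes Sca-1, at 25.92 to 41.13 and 45.40 to 45.76 FPKM. Of 42 HSC-enriched genes, 13 never reached 1 FPKM in these 6 libraries, including the stem cell genes Hoxb5, Fgd5 and Mecom. Transcripts that the sort should exclude were abundant in both groups, with Flt3 at 9.13 to 12.07 FPKM in Ctrl and 5.60 to 6.02 FPKM in L_IR. Mpo stood at 2859 to 3432 FPKM in Ctrl and 3046 to 3243 FPKM in L_IR. The libraries are therefore named by their labels, and the lineage genes below are read as transcripts in the sorted material. Fewer cells of a type and less RNA per cell cannot be told apart in such libraries.

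Ctrl 1 stood apart from the other control libraries. It listed 44.1% of its rows at 0, against 25.3% in Ctrl 2 and Ctrl 3 and 24.7 to 25.0% in L_IR. Nppa, an atrial peptide gene with no role in blood cells, was listed at 0 in Ctrl 1 and in all 3 L_IR libraries but reached 51.75 FPKM in Ctrl 2 and 62.49 FPKM in Ctrl 3. It was 51.16 to 63.92 FPKM in IR and at most 0.26 FPKM in Ab_IR. Pearson's r over the genes tested was 0.955 to 0.991 between Ctrl libraries and 0.993 to 0.994 between L_IR libraries. Between a Ctrl and an L_IR library it was 0.938 to 0.973. The summed level of the whole atrial and heart muscle list was 4.89 FPKM in Ctrl 1, 171 and 204 FPKM in Ctrl 2 and 3, and 3.61 to 3.93 FPKM in L_IR. Cox6a2, on that list, did not follow Nppa, at 3.04, 2.98 and 4.62 FPKM in Ctrl. Leaving out Ctrl 1 thus sets L_IR against controls that carry Nppa and other heart muscle transcripts, and their part in the results was not tested. Results are given also without Ctrl 1, and against Ctrl 1 as the single control library, where limma takes the spread from L_IR alone.

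After irradiation with L, a small share of the genes tested lay away from the control level. Of 12251 genes tested with limma on log2(FPKM + 1), 325 passed (2.65%), with an adjusted p (Benjamini-Hochberg) under 0.05 and a log2 difference above 1 in size. These are termed called, with 249 higher in L_IR (2.03%) and 76 lower (0.620%). For every called gene the 3 L_IR and 3 Ctrl values did not overlap, as was true of 36.1% of all genes tested. Immunoglobulin genes made up 162 of the 325, of which 159 were higher. The other 163 called genes were divided into 90 higher and 73 lower. Of 27 HSC-enriched genes tested none was called (all genes: 2.65%), with a median of -0.13, and 1 was called lower without Ctrl 1. In L_IR, immunoglobulin genes took 22.2 to 22.9% of the summed FPKM, against 9.2 to 11.3% in Ctrl. FPKM are scaled to fragments, for which FPKM times exon length stands here, and of that sum they took 5.5 to 5.7% in L_IR and 2.3 to 2.5% in Ctrl. With them left out and the rest rescaled by fragments, an alternative chosen after seeing the data, the median of all genes moved from 0.00 to 0.04 on the log2 scale, 154 of the 163 other calls were kept, and 94 genes were called higher and 64 lower. The share called higher outside the immunoglobulins went from 55.2% to 59.5%. A rescaling by the sum of FPKM, which corrects for more than the fragments lost, moved the median by 0.18 and gave 158 higher and 49 lower (76.3% higher). Without Ctrl 1, 298 of the 325 calls were kept. Against Ctrl 1 alone, 295 were kept, and 268 were kept in both.

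The calls fell into classes by what IR alone did to the same gene. IR against Ctrl shares the Ctrl libraries with L_IR against Ctrl, so the division is a description and its counts are given without a test. In IR against Ctrl, 7.60% of genes were called. Of the 325 genes, 160 were called the same way in IR and are termed still changed. A further 14 were called the opposite way and are termed overshooting. The remaining 151 were not called in IR, among them 23 that were too low in IR and Ctrl to be tested. The 128 higher ones had a median log2 difference from Ctrl of 0.61 in IR, where tested, and 1.38 in L_IR. For the 23 lower ones these medians were -0.22 and -1.31. Some of them lay just under the threshold in IR, such as Ighg2b at 0.99. Leaving out immunoglobulin genes, the still changed, overshooting and remaining classes held 61, 13 and 89 genes. The 40 still lower genes outside the immunoglobulins had a median log2 difference from Ctrl of -2.53 in IR and -1.18 in L_IR. For the 21 still higher ones these medians were 1.59 and 1.55. These medians cover only genes called the same way in both comparisons, so genes that IR had moved and that returned to the control level are not among them.

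**Figure D1:**
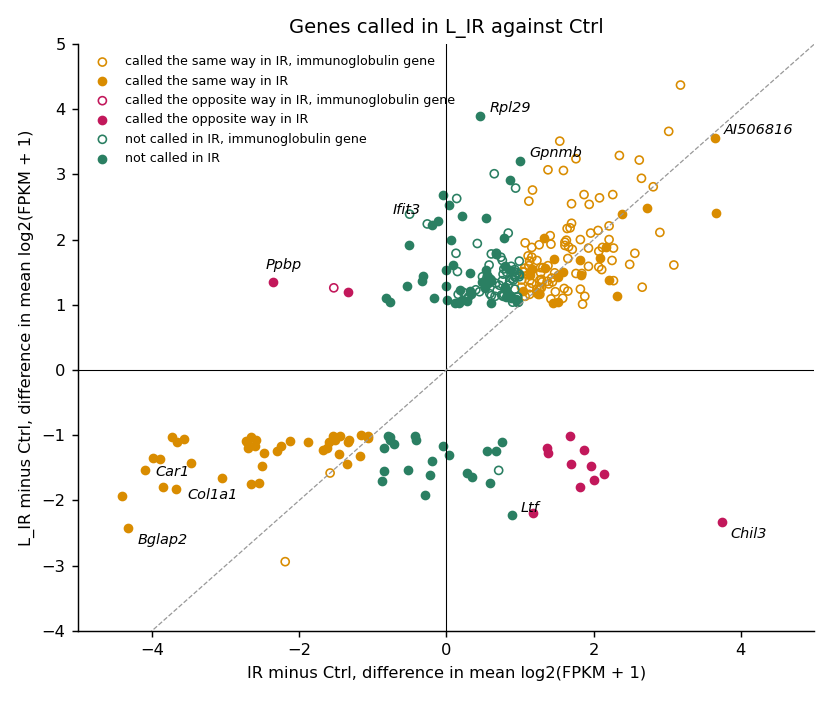
Genes called in L_IR against Ctrl, placed by the log2 difference of IR from Ctrl (x axis) and of L_IR from Ctrl (y axis). Open circles are immunoglobulin genes and the dashed line marks equal differences, with 23 genes not tested in IR left out; Chil3 lies far to the lower right, and most still lower genes lie above the dashed line at the left.

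Of the 14 overshooting genes, 9 were on the list of secondary granule and mature neutrophil genes and 2 on the platelet list. The 11 raised by IR that lay below Ctrl in L_IR were Chil3, Mmp9, Mmp8, Ifitm6, Lcn2, Asprv1, Cd177, S100a9, Lrg1, Orm1 and Cxcr2. Cd177, S100a9, Asprv1, Lrg1 and Orm1 were named after their values were seen. All 11 were kept without Ctrl 1 and 10 against Ctrl 1 alone, where S100a9 lay 0.90 below. Cxcr2 lost its call with immunoglobulins left out, at -0.98 by fragments and -0.88 by the sum of FPKM, and when Ctrl 2 or L_IR 1 was left out.

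Chil3, which encodes a chitinase-like protein stored by neutrophils (chr3:106147554-106167564, minus strand, GRCm38), showed the widest swing. It was 48.65, 59.01 and 55.99 FPKM in Ctrl, 729.67, 738.11 and 752.94 FPKM in IR, and 9.49, 10.61 and 9.86 FPKM in L_IR. IR lay far above the other groups and L_IR was the lowest of all 4, with no overlap between Ctrl, IR and L_IR. The log2 difference of L_IR from Ctrl was -2.33 (SE 0.0897, limma adjusted p = 7.25e-05), against 3.74 for IR. Lcn2, a siderophore-binding protein of secondary granules, was 59.93, 85.79 and 80.85 FPKM in Ctrl, 330.46 to 332.80 FPKM in IR and 23.86 to 24.46 FPKM in L_IR. Mmp9, a gelatinase, was 12.11 to 13.91 FPKM in Ctrl, 30.50 to 32.66 FPKM in IR and 2.0 to 2.26 FPKM in L_IR. Its log2 difference from Ctrl was -2.20 (SE 0.0810, adjusted p = 7.11e-05).

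The fall in L_IR reached granule genes that IR had not raised past the threshold. Ltf, encoding lactoferrin (chr9:111019271-111042767), was 154.80, 154.95 and 156.64 FPKM in Ctrl and 33.22, 31.65 and 32.16 FPKM in L_IR, a log2 difference of -2.23 (SE 0.0559, adjusted p = 3.32e-05). In IR it was higher than in Ctrl, by 0.89. Ngp, a cystatin-like granule protein, was 1101.75 to 1131.85 FPKM in Ctrl and 326.43 to 336.96 FPKM in L_IR (-1.74, SE 0.0678, adjusted p = 7.25e-05). Camp, the cathelicidin precursor, was 176.43, 320.73 and 294.71 FPKM in Ctrl and 100.16 to 104.70 FPKM in L_IR, and against Ctrl 1 alone its log2 difference of -0.78 did not pass. Ly6g, the Gr-1 antigen of mature neutrophils, was low in both groups, at 3.88 to 11.13 and 0.83 to 1.73 FPKM.

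Over the list of secondary granule and mature neutrophil genes, 30 of 32 were tested and 16 were called lower in L_IR than in Ctrl (all genes: 0.620%), with none higher. The list median was -1.09, against 0.00 for all genes. Without Ctrl 1 the count was 19, against Ctrl 1 alone 15, and with immunoglobulins left out 15 by either rescaling. In IR against Ctrl, 18 of 32 were called higher (all genes: 3.03%) and the median was 1.12. The summed level of the list was 4354 to 6136 FPKM in Ctrl, 11142 to 11670 FPKM in IR, 5538 to 5712 FPKM in Ab_IR and 2361 to 2449 FPKM in L_IR. Of 11 primary granule genes tested none was called (all genes: 2.65%). Their median was -0.24, with 9 differences below 0, and the summed level was 9280 to 10186 FPKM in Ctrl and 8652 to 8900 FPKM in L_IR. With immunoglobulins left out the median was -0.19 by fragments and -0.03 by the sum of FPKM. Mpo differed by 0.01 (SE 0.108, adjusted p = 0.969).

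A direct test set L_IR against Ab_IR, the other treated group, whose list median against Ctrl was 0.02. Of 30 secondary granule genes tested, 13 were called lower in L_IR than in Ab_IR (all genes: 0.295%), and none higher. Chil3 was 38.54 to 40.44 FPKM in Ab_IR and lay 1.89 lower in L_IR on the log2 scale (adjusted p = 2.20e-06). Ltf lay lower by 2.31 (adjusted p = 4.02e-07). Of the 11 primary granule genes tested, none was called between L_IR and Ab_IR (all genes: 0.295% lower), and their median was -0.28. With so few genes this count does not set them apart from all genes.

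**Figure D2:**
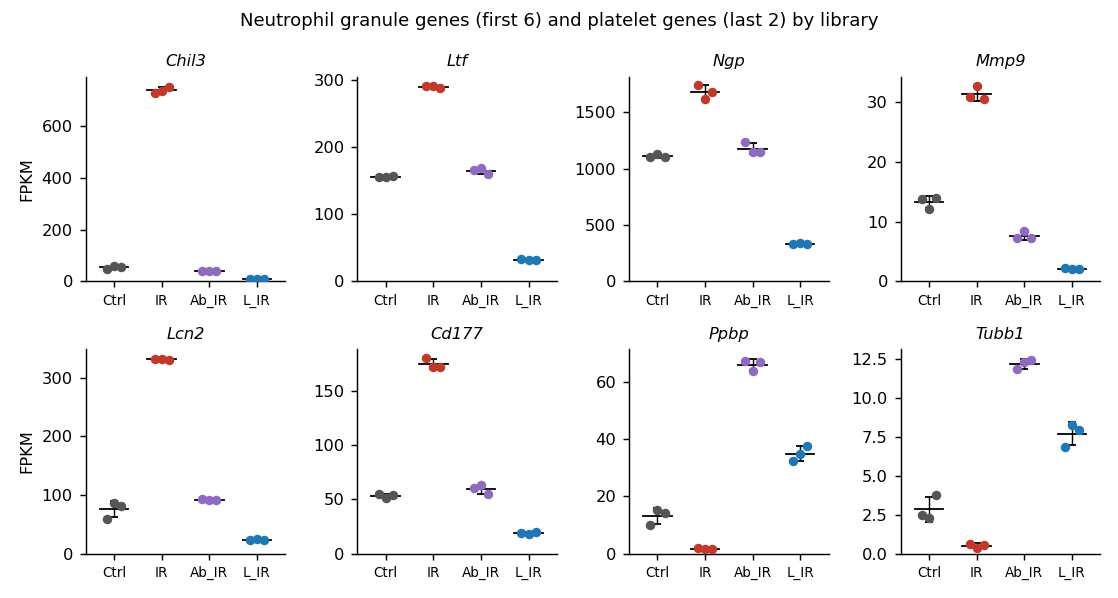
FPKM by library (y axis, from 0) of 6 neutrophil granule genes and 2 platelet genes in Ctrl, IR, Ab_IR and L_IR (x axis, 3 points each; line, mean; bars, SD). Chil3, Ltf, Ngp, Mmp9, Lcn2 and Cd177 are lowest in L_IR, and Ppbp and Tubb1 are lowest in IR and higher in L_IR than in Ctrl.

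Overshoot in the upward direction was limited to 3 genes, Ppbp, Tubb1 and the immunoglobulin gene Igkv4-68. Ppbp encodes a platelet alpha-granule chemokine (chr5:90768518-90770063). It was 10.13, 15.33 and 14.33 FPKM in Ctrl, 1.70 to 1.84 FPKM in IR and 32.48, 34.77 and 37.71 FPKM in L_IR. The log2 difference from Ctrl was 1.35 (SE 0.152, adjusted p = 0.00337) in L_IR and -2.36 in IR. Tubb1, the tubulin of the platelet marginal band, was 2.28 to 3.77 FPKM in Ctrl and 6.85 to 8.23 FPKM in L_IR (1.19, SE 0.156, adjusted p = 0.00621). Both were higher still in Ab_IR, with Ppbp at 63.92 to 67.53 FPKM. Other platelet genes did not show it. Of 26 megakaryocyte and platelet genes tested only these 2 were called (all genes: 2.03% higher), the list median was 0.13, and Pf4, the chemokine gene beside Ppbp, differed by 0.15 (adjusted p = 0.589).

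Many genes of bone-forming cells lay below Ctrl in both IR and L_IR. In IR against Ctrl, 12 of 18 bone and stroma genes were called lower (all genes: 4.57%), with a median of -1.45. L_IR against IR had a list median of 1.07. Of 17 bone and stroma genes tested, 9 were called lower in L_IR (all genes: 0.620%) and none higher, with a median of -1.24. Col1a1, the alpha-1 chain of type I collagen, was 79.34, 85.29 and 100.21 FPKM in Ctrl, 5.80 to 6.26 FPKM in IR and 24.55, 23.49 and 24.23 FPKM in L_IR. The log2 difference from Ctrl was -1.82 (SE 0.0949, adjusted p = 0.000148) in L_IR and -3.67 in IR. Bglap2, an osteocalcin gene (chr3:88377736-88378699), was 17.66 to 22.64 FPKM in Ctrl and 2.72 to 2.99 FPKM in L_IR (-2.42, SE 0.0995, adjusted p = 7.41e-05), and it was listed at 0 in 2 IR libraries. Col1a2 and Sparc, a collagen chain and a collagen-binding matrix protein, lay 1.93 and 1.65 below Ctrl. Igfbp5, a binding protein for insulin-like growth factors made by stromal cells, was 3.33 to 4.0 FPKM in Ctrl and 0.80 to 0.89 FPKM in L_IR, and its difference from Ctrl of -1.32 was near the -1.17 of IR. The count was 9 without Ctrl 1, 7 against Ctrl 1 alone and 9 with immunoglobulins left out by either rescaling. Ab_IR had 9 of 17 called lower (all genes: 0.231%). L_IR against Ab_IR had none called of 15 tested (all genes: 0.295% lower), with a median of -0.05.

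Erythroid genes were partly restored. In IR against Ctrl, 29 of 37 erythroid genes were called lower (all genes: 4.57%), with a median of -2.32. In L_IR the median was -0.53 and 6 of 37 were called lower (all genes: 0.620%), namely Car1, Alas2, Hba-a1, Hba-a2, Hbb-bs and Hbb-bt. Car1, the carbonic anhydrase of early red cell precursors, was 603.79, 528.23 and 503.47 FPKM in Ctrl, 35.67 to 37.28 FPKM in IR and 156.44, 152.98 and 159.93 FPKM in L_IR (-1.79, SE 0.0873, adjusted p = 0.000115). Alas2, which starts heme synthesis in red cells, was 25.40 to 28.11 FPKM in Ctrl and 10.67 to 11.47 FPKM in L_IR (-1.20, SE 0.0659, adjusted p = 0.000175). Hba-a1, an alpha globin, was 894.03 to 1136.46 FPKM in Ctrl and 485.92 to 514.44 FPKM in L_IR (-1.07, SE 0.115, adjusted p = 0.00275). Against Ctrl 1 alone the differences of Hba-a1 and Hbb-bs were -0.84 each, under the size threshold. Without Ctrl 1, 7 erythroid genes were called lower. Apoe, on the list for its expression in red cell precursors but also a macrophage gene, was called higher by 1.05, and at 0.91 without Ctrl 1 it was not called. With immunoglobulins left out the count was 6 by fragments and 2 by the sum of FPKM, where the 4 globin genes were under the threshold. All 14 heme synthesis genes had differences below 0, as had 50% of all genes, with 1 called lower (all genes: 0.620%). Their median was -0.41, and -0.36 by fragments and -0.20 by the sum of FPKM with immunoglobulins left out.

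Eosinophil genes followed the same course. Ear1, an eosinophil ribonuclease, was 436.67, 598.33 and 544.73 FPKM in Ctrl, 31.58 to 33.06 FPKM in IR and 203.47, 199.06 and 211.81 FPKM in L_IR (-1.35, SE 0.124, adjusted p = 0.00143). Prg3, a major basic protein paralog, was 210.74 to 299.86 FPKM in Ctrl and 117.34 to 122.47 FPKM in L_IR (-1.11, SE 0.137, adjusted p = 0.00490). Of 14 eosinophil genes tested, 3 were called lower (all genes: 0.620%), and 1 against Ctrl 1 alone. With immunoglobulins left out the count was 2 by fragments and 1 by the sum of FPKM. The list median was -3.69 in IR, -0.52 in L_IR and 0.26 in Ab_IR. Of 13 multipotent and lymphoid-primed progenitor genes, with a median of -0.32, 1 was called lower (all genes: 0.620%). This was Dntt. Dntt, the terminal transferase of lymphoid-primed progenitors, was 12.44 to 14.34 FPKM in Ctrl, 0.26 to 0.35 FPKM in IR, 12.33 to 13.01 FPKM in Ab_IR and 4.20 to 4.61 FPKM in L_IR (-1.43, SE 0.0763, adjusted p = 0.000157). H2-Q6, a class I MHC gene and the 1 called of 21 MHC class I and immunoproteasome genes (all genes: 0.620% lower), whose median was -0.13, was 93.76 to 96.47 FPKM in Ctrl and 37.07 to 40.96 FPKM in L_IR (-1.27, SE 0.0628, adjusted p = 0.000121).

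**Figure D3:**
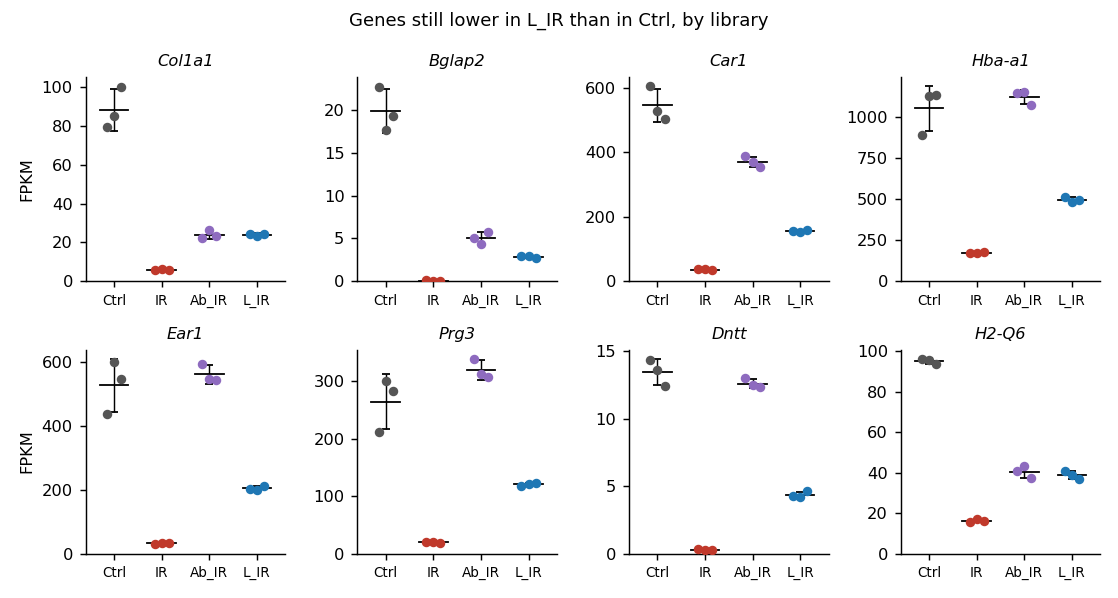
FPKM by library (y axis, from 0) of 8 genes still lower in L_IR than in Ctrl, with 3 points a group, the mean as a line and the SD as bars. Every gene is lowest in IR, and in L_IR it lies between IR and Ctrl.

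Immunoglobulin genes carried most of what stayed higher. Of 102 kappa variable genes tested, 74 were called higher in L_IR and none lower (all genes: 2.03% and 0.620%), and of 104 heavy variable genes 60 were called higher and 3 lower. Their reads are shared among near-identical family members, so single genes are uncertain. Igkc, the kappa constant region, was 12525.82, 9789.21 and 9409.42 FPKM in Ctrl and 24121.42, 24332.79 and 24973.35 FPKM in L_IR (1.22, SE 0.158, adjusted p = 0.00600). Against Ctrl 1 alone its difference was 0.97, under the threshold. Ighv13-2 showed the largest rise of any gene named by the rule, from 3.21 to 4.91 FPKM in Ctrl to 100.50 to 103.56 FPKM in L_IR (4.37, SE 0.124, adjusted p = 3.32e-05). Ighv7-4 moved the other way, from 29.53 to 34.02 FPKM in Ctrl to 2.98 to 3.46 FPKM in L_IR (-2.94, SE 0.0841, adjusted p = 3.32e-05). It was also low in IR, at 5.4 to 6.5 FPKM, and in Ab_IR, at 1.25 to 2.06 FPKM. Of the 102 kappa variable genes, 101 had a difference from Ctrl above 0.

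Plasma cell genes other than the immunoglobulins were mostly higher too, with 21 of 22 differences above 0. Of 22 tested, 8 were called higher (all genes: 2.03%) and none lower, with a median of 0.70 and a count of 8 without Ctrl 1 and 9 against Ctrl 1 alone. Irf4, a transcription factor of plasma cells, was 5.55 to 5.87 FPKM in Ctrl and 14.76 to 15.79 FPKM in L_IR (1.27, SE 0.0614, adjusted p = 0.000115). Tnfrsf17, the survival receptor BCMA, was 2.41 to 3.80 FPKM in Ctrl, 2.67 to 3.33 FPKM in IR and 8.19 to 9.28 FPKM in L_IR (1.29, SE 0.133, adjusted p = 0.00240). Mzb1, an endoplasmic reticulum protein of antibody-secreting cells, was 11.50, 27.84 and 25.20 FPKM in Ctrl and 58.18 to 60.19 FPKM in L_IR, and lost its call when Ctrl 3 or any L_IR library was left out. Pou2af1, a B lineage co-activator, was 7.12 to 8.74 FPKM in Ctrl, 40.94 to 43.37 FPKM in IR and 17.53 to 18.31 FPKM in L_IR. L_IR lay between Ctrl and IR, and was 1.13 above Ctrl (SE 0.0882, adjusted p = 0.000716).

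T and NK cell genes were mostly a little higher. Of 30 tested, 4 were called higher (all genes: 2.03%), and 19 had an adjusted p under 0.05 upward with no threshold on the difference (all genes: 4.76%), none downward. The count called was 7 against Ctrl 1 alone and 9 with a pseudocount of 0.1, and with immunoglobulins left out 5 by fragments and 8 by the sum of FPKM. The list median was 0.57 in L_IR and -0.21 in IR, and the summed level was 256, 387 and 360 FPKM in Ctrl and 442 to 452 FPKM in L_IR. Cd8b1, a CD8 chain, was 0.40 to 0.76 FPKM in Ctrl and 2.70 to 3.03 FPKM in L_IR (1.29, SE 0.113, adjusted p = 0.00114). Ccl5, a chemokine of cytotoxic lymphocytes, was 9.05, 20.35 and 13 FPKM in Ctrl and 55.65 to 56.87 FPKM in L_IR (1.99, SE 0.253, adjusted p = 0.00569). Il2rb, a chain of the interleukin-2 receptor, lay 1.17 above Ctrl. Cd4 was not higher, with a difference of -0.19.

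Still higher genes outside the immunoglobulins were 21. AI506816, an unnamed transcript at chr5:23698296-23712667, was 3.6, 4.42 and 4.16 FPKM in Ctrl, 61.04 to 63.16 FPKM in IR, 48.31 to 50.86 FPKM in Ab_IR and 58.84, 57.58 and 58.82 FPKM in L_IR. Its log2 difference from Ctrl was 3.56 (SE 0.0772, adjusted p = 2.82e-05) in L_IR and 3.65 in IR. It was named after its values were seen. Hspa1a, an inducible HSP70 gene, was 4.63 to 6.19 FPKM in Ctrl, 16.15 to 17.56 FPKM in IR and 15.11 to 16.48 FPKM in L_IR (1.43, SE 0.102, adjusted p = 0.000482). Its copy Hspa1b lay 1.17 above Ctrl. These were the 2 called higher of 17 heat shock chaperones tested (all genes: 2.03%), whose median was 0.50 in IR and 0.10 in L_IR.

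A few inflammatory and macrophage genes were called higher in L_IR and not in IR. Of 20 inflammatory cytokine and chemokine genes tested, 3 were called higher (all genes: 2.03%) and none lower. Their differences were above 0 for 11 and below for 9, and the median was 0.14, against 0.24 in Ab_IR. The count called was 2 when Ctrl 3 or any L_IR library was left out. Il1rn, the interleukin-1 receptor antagonist, was 0.68, 1.41 and 0.71 FPKM in Ctrl, 0.60 to 2.76 FPKM in IR and 11.09, 7.94 and 7.17 FPKM in L_IR (2.33, SE 0.200, adjusted p = 0.00107). Gpnmb, a glycoprotein of phagocytic macrophages named after its values were seen, was listed at 0 in Ctrl 1, was 2.01 and 0.04 FPKM in Ctrl 2 and 3, and was 14.76, 12.03 and 11.02 FPKM in L_IR. Its log2 difference was 3.21 (SE 0.425, adjusted p = 0.00653). Hmox1, which degrades heme and is induced in macrophages, was 7.98 to 10.65 FPKM in Ctrl, 15.79 to 20.11 FPKM in IR and 24.91 to 35.30 FPKM in L_IR (1.54, SE 0.152, adjusted p = 0.00192). IR alone put Hmox1 0.87 above Ctrl (adjusted p = 0.00245), under the size threshold. Ab_IR also stood high, with Gpnmb at 8.70 to 10.95 FPKM and Hmox1 at 23.58 to 24.98 FPKM. L_IR lay above Ab_IR by 0.37 and 0.24, and neither gene was called between these groups. Siglec1, the receptor of resident marrow macrophages, was 0.65 to 0.90 FPKM in Ctrl and 2.91 to 4.27 FPKM in L_IR. Of 21 marrow macrophage genes tested, 3 were called higher (all genes: 2.03%) and none lower, and 2 without Ctrl 1. Their median was 0.23, with 7 differences below 0, against a median of 0.21 in Ab_IR. The summed level of the list was 205 to 229 FPKM in Ctrl, 269 to 300 FPKM in Ab_IR and 275 to 317 FPKM in L_IR.

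A few interferon-stimulated genes were called higher. Of 72 tested, 5 were called higher (all genes: 2.03%), Ifit1, Ifit3, Ifit1bl1, Rsad2 and Mx1, while the list median was 0.02, and Irf7 differed by 0.31. Ifit3, which belongs to a family that binds foreign RNA, was 1.61, 6.75 and 1.07 FPKM in Ctrl, 0.66 to 3.75 FPKM in IR and 14.01, 15 and 16.49 FPKM in L_IR. Its log2 difference was 2.22 (SE 0.469, adjusted p = 0.0368). Rsad2, the antiviral protein viperin, was 1.05, 5.91 and 2.35 FPKM in Ctrl and 12.58 to 12.79 FPKM in L_IR (1.92, SE 0.405, adjusted p = 0.0363). Ctrl 2 was the high control for both, and the spread among controls was wide. Both lost their calls with a pseudocount of 0.1, with the replicate number as a block, and when Ctrl 3 or any L_IR library was left out. The list count was 2 to 7 when single libraries were left out, 5 without Ctrl 1 and 8 against Ctrl 1 alone. With immunoglobulins left out it was 6 by fragments, with a median of 0.06, and 9 by the sum of FPKM, with a median of 0.20. L_IR was not called apart from Ab_IR for Ifit3 (0.63 higher, adjusted p = 0.0926).

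The promoters of these genes are printed because interferon-activated factors bind a shared element there. The element was searched as GAAANNGAA on either strand in the RefSeq promoters of GRCm38.p6, from 250 bases before to 50 bases after the start. It was found in 9.8% of 27025 genes with a promoter in the table, in 28 of 49 interferon-stimulated genes that were tested and not called, and in all 4 called members that had an entry, Ifit1, Ifit3, Ifit1bl1 and Rsad2. Such a match describes letters and not a bound site. Capitals mark the element or its reverse complement, overlaps included, in the 250 bases before the start, for Ifit3 (chr19:34583279-34583528, plus strand), Ifit1 (chr19:34640639-34640888, plus strand) and Rsad2 (chr12:26456453-26456702, minus strand).
Ifit3: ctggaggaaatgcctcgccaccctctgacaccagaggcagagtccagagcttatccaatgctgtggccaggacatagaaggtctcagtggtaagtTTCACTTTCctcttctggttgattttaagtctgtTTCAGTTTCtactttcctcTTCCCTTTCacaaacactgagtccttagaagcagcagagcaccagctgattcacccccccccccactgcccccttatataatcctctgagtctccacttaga
Ifit1: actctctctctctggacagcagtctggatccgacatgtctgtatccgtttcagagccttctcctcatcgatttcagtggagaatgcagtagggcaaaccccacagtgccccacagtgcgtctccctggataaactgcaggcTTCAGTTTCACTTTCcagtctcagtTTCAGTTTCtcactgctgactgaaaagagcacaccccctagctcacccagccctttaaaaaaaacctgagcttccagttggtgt
Rsad2: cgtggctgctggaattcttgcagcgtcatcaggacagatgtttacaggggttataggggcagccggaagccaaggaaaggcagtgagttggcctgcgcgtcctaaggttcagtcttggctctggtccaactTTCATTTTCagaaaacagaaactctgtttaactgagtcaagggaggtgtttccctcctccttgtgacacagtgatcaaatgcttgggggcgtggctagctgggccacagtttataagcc
In Ifit3 the matches began 155, 121 and 102 bases before the start, in Ifit1 109, 103 and 84 bases before it, and in Rsad2 119 bases before it. The number of matches did not follow the size of the change, which was 2.22 in Ifit3, 1.44 in Ifit1 and 1.92 in Rsad2.

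**Figure D4:**
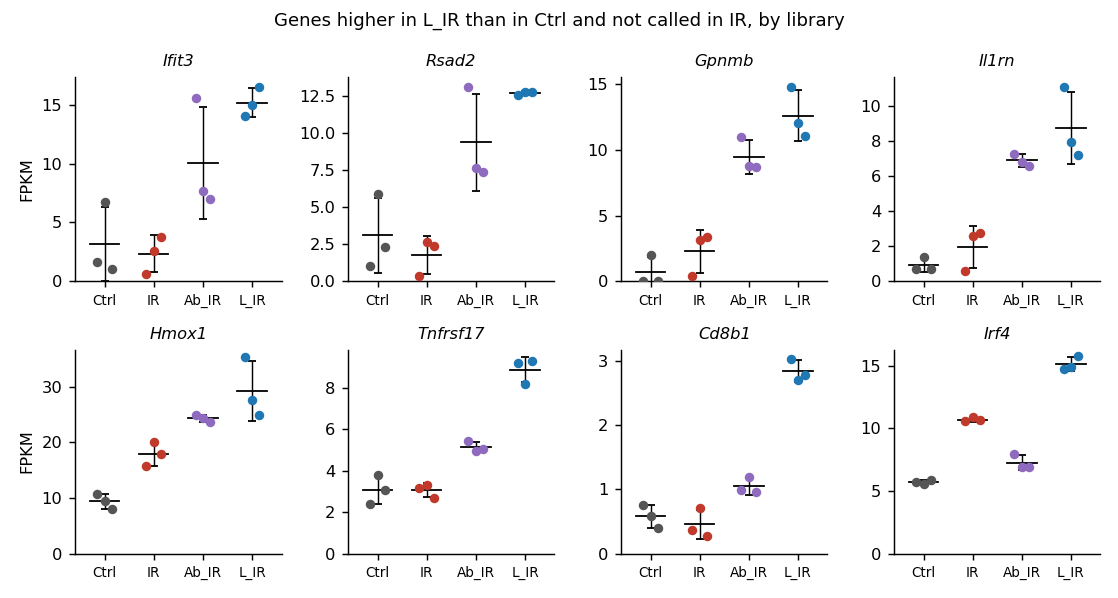
FPKM by library (y axis, from 0) of 8 genes higher in L_IR than in Ctrl and not called in IR (Cd8b1 was not tested there), with 3 points a group, the mean as a line and the SD as bars. Control libraries are spread for Ifit3 and Rsad2 and close together for Irf4, and all 3 L_IR points lie above them in each panel.

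Some immediate early genes were lower. Of 26 tested, 3 were called lower (all genes: 0.620%) and none higher, with a median of -0.39. Klf2, a quiescence and trafficking factor, was 69.97, 88.73 and 84.89 FPKM in Ctrl, 68.02 to 71.55 FPKM in IR and 28.69, 25.47 and 23.64 FPKM in L_IR (-1.61, SE 0.115, adjusted p = 0.000482). IR did not move it past the threshold, at -0.22. Klf6 and Ier3 lay 1.14 and 1.07 below Ctrl, and kept their calls with immunoglobulins left out by fragments but not by the sum of FPKM, where the list count was 1. It was 5 against Ctrl 1 alone, 5 without L_IR 1 and 6 after quantile normalization.

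Few genes of the DNA damage, cell cycle and growth factor lists were called. None of 59 DNA repair, 53 S phase and 52 G2/M genes was called (all genes: 2.65%), with medians of -0.03, -0.11 and -0.10. With immunoglobulins left out these medians were 0.01, -0.06 and -0.05 by fragments and 0.16, 0.10 and 0.10 by the sum of FPKM. Of 31 p53 targets only Phlda3, an inhibitor of AKT signalling, was called, at 0.47 to 1.37 FPKM in Ctrl and 4.29 to 5.21 FPKM in L_IR (1.59, SE 0.187, adjusted p = 0.00403). The count was 3 against Ctrl 1 alone, 3 with a pseudocount of 0.1, and with immunoglobulins left out 1 by fragments and 3 by the sum of FPKM. Cdkn1a, the p21 cell cycle inhibitor, was 11.73 to 13.11 FPKM in Ctrl and 18.74 to 20.59 FPKM in L_IR, a difference of 0.66 (adjusted p = 0.00312) that stayed under the size threshold. Of 45 genes of the IGF1 receptor, AKT and mTOR list 1 was called, Igfbp5. Igf1r itself differed by -0.04 (SE 0.0932, adjusted p = 0.819) and Mtor by 0.24 (SE 0.163, adjusted p = 0.412). Without Ctrl 1, Mtor lay 0.41 above Ctrl (adjusted p = 0.0349), under the size threshold. The sign of Igf1r turned without Ctrl 1, to 0.03, and with immunoglobulins left out by the sum of FPKM, to 0.15 (0.00 by fragments), and that of Mtor against Ctrl 1 alone, to -0.10. Of 41 iron and ferroptosis genes 1 was called, Hmox1, against 3 with Ctrl 1 as the single control. Gpx4, the lipid peroxidase that restrains ferroptosis, differed by -0.08 (SE 0.143, adjusted p = 0.768). Without Ctrl 1 the difference was -0.25 (adjusted p = 0.00967), under the size threshold, and against Ctrl 1 alone it was 0.26. With immunoglobulins left out Gpx4 differed by -0.03 by fragments and 0.14 by the sum of FPKM. Of 24 cholesterol synthesis and uptake genes, 9 had an adjusted p under 0.05 downward with no threshold on the difference (all genes: 4.08%), and the median was -0.30 in L_IR and -0.30 in Ab_IR. In L_IR it was -0.26 by fragments and -0.10 by the sum of FPKM with immunoglobulins left out.

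**Figure D5:**
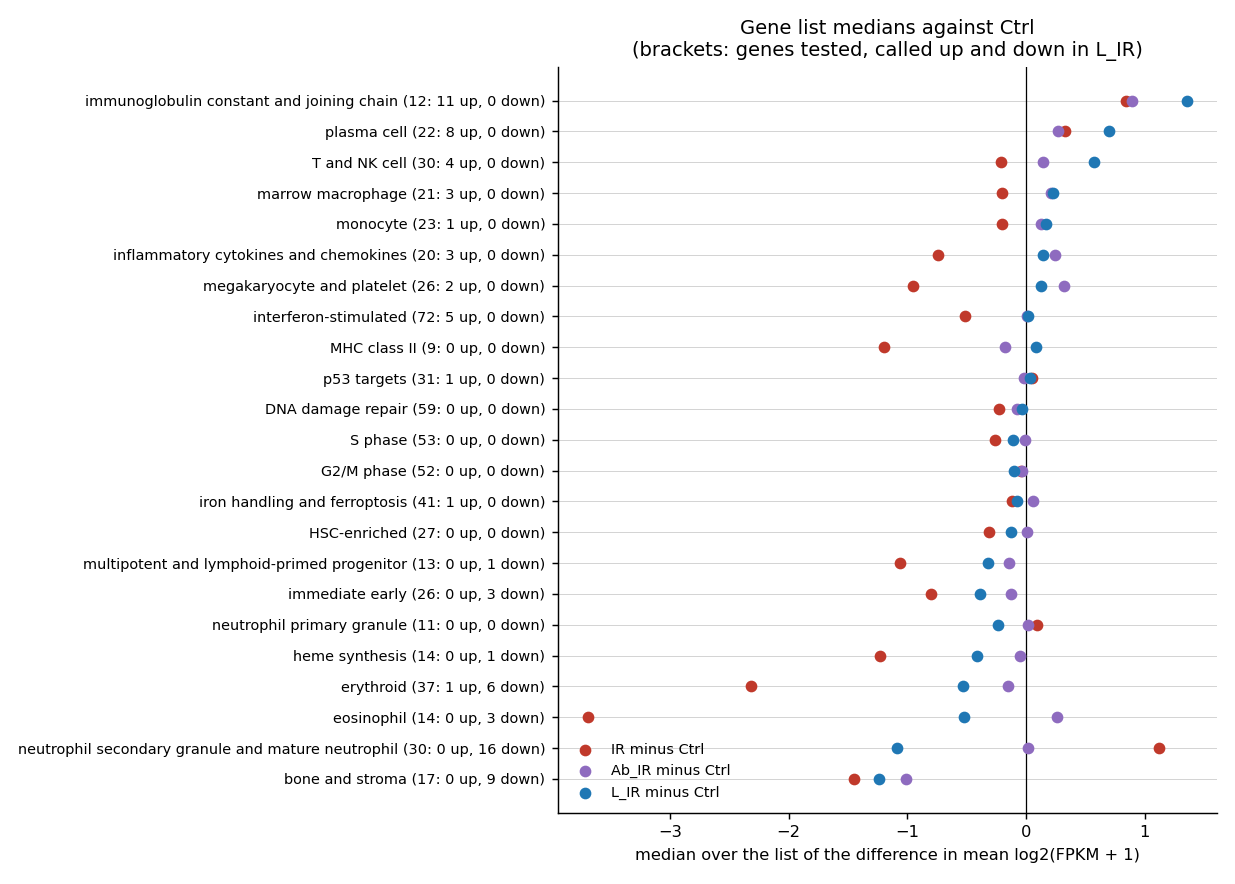
Median log2 difference from Ctrl over the tested genes of each list (x axis) for IR, Ab_IR and L_IR; the numbers in brackets are genes tested and genes called higher and lower in L_IR. The secondary granule list lies at 1.12 in IR and -1.09 in L_IR, the bone and stroma list is below 0 in all 3, and the cycle and repair lists lie at -0.11 to -0.03 in L_IR.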

How the data were processed

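Bone marrow HSCs were sorted at 3 days after irradiation, and polyadenylated RNA was sequenced on stranded libraries. Per the labels, the authors used fastp, HISAT2 and StringTie with GRCm38 (mm10), while the study's methods name RSEM and DESeq2; versions in the labels are not given in the sources used here. Each deposited file holds 1 value a gene, read as FPKM that the authors computed, since values times GENCODE M21 exon kb summed to 915904 to 947165 a library. Depth is unknown.

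Genes at 1 FPKM or more in at least 3 of the 6 libraries were tested on log2(FPKM + 1) with limma 3.58.1 in R 4.3.3 (lmFit, eBayes with trend), the libraries of each comparison alone. All adjusted p-values of genes are limma's. Differences on this scale understate changes of low genes. On simulated data 91 to 95% of 200 genes changed by 1.5 were found. The changed genes all had a mean log2(FPKM + 1) above 3, and each gene had the same SD in both groups. In the data the median SD on that scale was 0.162 in Ctrl and 0.0552 in L_IR. The share found therefore does not cover lower genes or the unequal spread.

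The comparison, the 46 gene lists and the rule for named genes were chosen with earlier results of these data known. The rule took called genes: the 10 largest rises and 10 falls with a mean of at least 10 FPKM, the 5 largest rises and 5 falls still changed and overshooting with a mean of at least 5 FPKM (all without predicted names or names on several rows), up to 4 called genes a list and a panel of 21; other genes were chosen after their values were seen. Paralogous genes (Hba-a1 and Hba-a2, Hbb-bs and Hbb-bt, Ear, Bglap, Hspa1 and H2-Q genes) share reads and are uncertain. Positions are from GENCODE M21.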

Additional observations from a re-analysis of the deposited data

How the results depend on the processing

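The 325 calls ranged from 269 to 347 when 1 library was left out (203 to 260 higher, 61 to 87 lower), still changed genes from 136 to 175, overshooting genes from 13 to 18 and genes not called in IR from 119 to 154. With the replicate number as a block 294 genes were called; deviations of same-numbered Ctrl and L_IR libraries correlated at -0.07, 0.10 and -0.06, so the samples share only a number. Genes with a mean of 10 FPKM gave 205 calls, 37 of them lower, with 7 overshooting and 85 not called in IR; fewer genes were tested there. With immunoglobulin genes left out and libraries rescaled by the sum of FPKM, 207 genes passed, 158 of them upward and 49 downward, with 139 of 163 other calls kept; rescaled by FPKM times exon length, an alternative chosen after seeing the data, 158 passed, 94 of them upward, with 154 kept. Against Ctrl 1 alone 879 were called, 700 higher and 179 lower. With no threshold on the difference 1083 were called, 583 higher and 500 lower. The pseudocount of 0.1 ended the calls of Ifit3 and Rsad2, and the block those of Ifit3, Rsad2, Rps2, Ly6g and Mzb1; the cause was not tested. Quantile normalization sets Igkc, the top gene of each library, to a difference of 0. Of the 74 named genes that were called, none changed direction under the alternatives run on them, Igkc under quantile normalization aside. Of panel genes that were not called, Mtor (-0.10) and Mpo (-0.12) lay below 0 and Gpx4 (0.26) above 0 against Ctrl 1 alone. Without Ctrl 1, Igf1r was 0.03, Mtor 0.41 (limma adjusted p = 0.0349) and Gpx4 -0.25 (adjusted p = 0.00967). Igf1r (0.15), Gpx4 (0.14) and Acsl4 (0.03) were above 0 with immunoglobulins left out by the sum of FPKM. Unknown depth limits what can be said of genes near 1 FPKM.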

Other observations

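Several genes stood in L_IR and Ab_IR at a level unlike both Ctrl and IR, and were chosen after their values were seen except for Rpl29. Rpl29, a ribosomal protein gene with many processed copies, was 0.39, 4.72 and 3.44 FPKM in Ctrl, 3.34 to 3.81 FPKM in IR, 50.90 to 52.34 FPKM in Ab_IR and 47.34 to 48.96 FPKM in L_IR. The cytosolic ribosome list of 79 genes had a median of 0.06 in L_IR against Ctrl, with 2 called higher (all genes: 2.03%), Rpl29 and Rps2. That median was -0.22 without Ctrl 1, with 1 called higher and 2 lower, and 0.60 against Ctrl 1 alone, with 20 called higher. Podxl, a sialomucin of endothelium and progenitors, went the other way, at 2.87 to 4.04 FPKM in Ctrl, 4.11 to 4.41 FPKM in IR, 0.35 to 0.42 FPKM in Ab_IR and 0.33 to 0.52 FPKM in L_IR.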
